A study of Homo sapiens with 4 samples.

Results

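The genes of the AMPK and mTORC1 energy-sensing axis were examined in PC9 cells with TPX2 knockdown. They were 10 of the 18134 genes in the expression table and were taken by gene symbol: the AMP-activated protein kinase (AMPK) subunits PRKAA1, PRKAA2, PRKAB1, PRKAB2, PRKAG1 and PRKAG2, the AMPK kinase STK11 (LKB1), the mTORC1 components MTOR and RPTOR, and the mTORC1 inhibitor TSC2. PC9 cells are an established line from a human lung adenocarcinoma. Stable lines were made with lentiviral pLKO.1-puro carrying an shRNA against TPX2 (shTPX2) or a control shRNA (shNC) and were selected with puromycin, so both groups carried the vector and had been exposed to the drug. Poly(A) RNA was sequenced from 2 libraries per group, 4 in all and all of batch 1. The sources used here do not say that the libraries came from separate cultures, so the p-values below measure only the spread between these libraries, which may be technical.

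AMPK is a heterotrimer of a catalytic alpha, a scaffolding beta and a nucleotide-binding gamma subunit, and it is activated when AMP and ADP rise relative to ATP and LKB1 phosphorylates the alpha subunit. Active AMPK phosphorylates TSC2 and the mTORC1 subunit raptor, the product of RPTOR, which lowers mTORC1 activity. mTORC1 promotes protein synthesis and holds back autophagy by phosphorylating ULK1, whereas AMPK activates ULK1. This control acts mainly by phosphorylation, which mRNA levels do not show.

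Of the 10 genes, PRKAA1 and PRKAB2 were the 2 called lower in shTPX2 cells at the criteria of the study. These criteria called 7.99% of all tested genes lower and 14.2% in either direction. They were read here as limits on an unadjusted p, and neither gene had an adjusted p under 0.05. PRKAA1 encodes a catalytic subunit, alpha-1, and PRKAB2 a scaffolding subunit, beta-2. Their upstream sequences are shown beside that of PRKAA2, the gene of the other catalytic subunit, which was not called. Sequences were taken from RefSeq (GRCh38.p14), run 5′ to 3′ on the strand of the gene, and hold only the part of the 250 bases before an annotated start that lies outside every annotated exon. Capitals mark matches on either strand to 5 motifs. These were the GC box spelled GGGCGG, which SP1-type factors bind, the CCAAT box (by its name), the ETS factor core spelled CCGGAAG, the E-box spelled CACGTG, which MYC and TFEB bind, and the FOXO site spelled GTAAACA. The PRKAA1 stretch is chr5:40798375-40798427 on the minus strand, that of PRKAB2 is chr1:147172551-147172720 on the minus strand, and that of PRKAA2 is chr1:56645064-56645217 on the plus strand.
PRKAA1: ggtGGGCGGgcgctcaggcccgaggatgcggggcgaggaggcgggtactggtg
PRKAB2: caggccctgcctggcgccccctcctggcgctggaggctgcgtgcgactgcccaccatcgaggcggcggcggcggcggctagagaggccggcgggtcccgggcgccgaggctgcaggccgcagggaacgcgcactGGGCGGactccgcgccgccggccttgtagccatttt
PRKAA2: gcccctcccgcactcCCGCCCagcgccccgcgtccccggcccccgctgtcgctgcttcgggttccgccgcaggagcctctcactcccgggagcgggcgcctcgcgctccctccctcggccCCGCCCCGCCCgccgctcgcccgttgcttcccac
The printed stretches held 1 GC box in PRKAA1, 1 in PRKAB2 and 3 in PRKAA2, some of them overlapping, and no match to the other motifs. The full windows of 250 bases held 8 GC boxes for PRKAA1, 5 for PRKAA2 and 1 for PRKAB2, which also held 1 CCAAT box. That of PRKAB1 held 1 ETS core and no GC box. The windows of PRKAA1 (chr5:40798178-40798427) and PRKAB1 (chr12:119667883-119668132) reach into the annotated span of the gene. Only the 53 printed bases, with 1 GC box, lie before the span of PRKAA1. The counts, and the G and C contents below, therefore compare unlike regions. Among the 35116 annotated windows of this length, 42.6% held a GC box, 32% a CCAAT box, 8.52% an ETS core, 6.34% an E-box and 2.98% a FOXO site. The G and C content of the full windows was 80.8% for PRKAA1, 83.2% for PRKAA2, 67.6% for PRKAB1 and 69.6% for PRKAB2, against a median of 58% over all windows. Of the 10 genes, 8 had a GC box in at least 1 window, over 10 of their 15 windows.

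TPX2, the spindle assembly factor that was targeted, was measured at 55.01 and 111.85 TPM (a level scaled for transcript length and depth) in shNC 1 and shNC 2, and at 43.35 and 43.77 TPM in shTPX2 1 and shTPX2 2. It was lower in both shTPX2 libraries, and the gap between shNC 1 and shNC 2 was wider than that between shNC 1 and either shTPX2 library. The log2 fold change was −0.81 (SE 0.32) in the edgeR quasi-likelihood test, with an adjusted p of 0.618 and an unadjusted p of 0.0403. The estimate was −0.24 with shNC 2 left out and −1.21 with shNC 1 left out. Epithelial markers were high, with KRT8 at 8228 to 11388 TPM and EPCAM at 201 to 293 TPM, whereas the lung lineage markers NKX2-1, NAPSA and SFTPB lay between 0.04 and 1.67 TPM in every library. Of 7 markers of other cell types, PTPRC, VWF, COL3A1 and DCN were under 1 TPM in every library. COL1A1, a fibroblast marker like COL3A1 and DCN, was measured at 8.64 and 11.99 TPM in shNC and at 5.72 and 8.04 TPM in shTPX2. The summed level of the 7 markers was 140.5 and 247.5 TPM in the shNC libraries and 201.5 and 182.8 TPM in the shTPX2 libraries, most of it CD68. PECAM1 was highest in shNC 2, at 14.37 TPM against at most 5.92 TPM elsewhere. None of the 13 tested markers was called, and the part of these levels in the results below was not tested. Library totals ran from 20906441 to 21972583 expected counts, and the correlation on a log scale between libraries from 0.966 to 0.983.

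All 10 genes were expressed and passed the filter on low counts. In mean TPM over the 4 libraries, a level per transcript length, the order was PRKAA1 (64.1), PRKAG1 (59.1), STK11 (44.4), TSC2 (38.8), RPTOR (25.2), PRKAB1 (22.4), MTOR (18.3), PRKAG2 (18.0), PRKAB2 (8.93) and PRKAA2 (4.95). Neighbours in this order whose ranges over the libraries overlapped were PRKAA1 and PRKAG1, STK11 and TSC2, RPTOR and PRKAB1, PRKAB1 and MTOR, and MTOR and PRKAG2. PRKAG1 lay above STK11, TSC2 above RPTOR, PRKAG2 above PRKAB2 and PRKAB2 above PRKAA2 in every library. The alpha-1, beta-1 and gamma-1 genes were thus each measured above their alpha-2, beta-2 and gamma-2 paralogs.

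**Figure D1:**
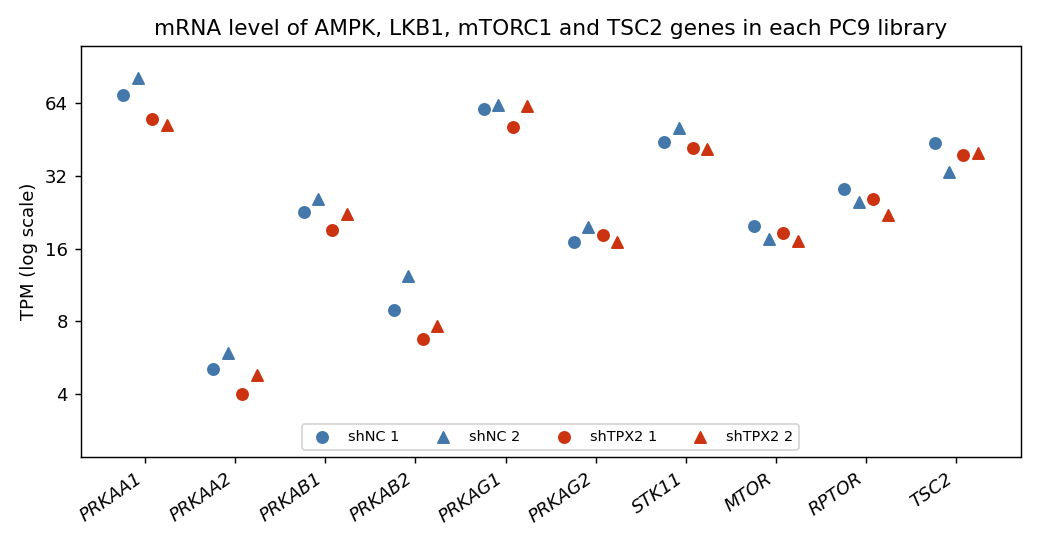
mRNA level of each of the 10 genes, in TPM on a log axis, with 1 point per library (blue shNC, red shTPX2; circles library 1, triangles library 2). Both red points lie below both blue points for PRKAA1, PRKAA2, PRKAB1, PRKAB2 and STK11, and the groups overlap for the other 5 genes. TPM is not corrected for composition, and 30.3% of all genes were lower in shTPX2 without overlap in TPM. After TMM scaling the groups also overlapped for PRKAA2 and PRKAB1.

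The study called differentially expressed genes by limits of 0.1 on a limma p and of 0.3 on a log fold change. Its methods give neither the adjustment, the base nor the sign, and the limits were read here as an unadjusted p and a log2 change in either direction. At these criteria 2 of the 10 genes were lower in shTPX2 cells, 0 were higher and 8 were not called, against 7.99% of all 14048 tested genes called lower, 6.24% called higher and 14.2% called in either direction. No gene of the 10 reached an adjusted p under 0.05 in edgeR, where 0% of all genes did (0 of 14048, with a smallest adjusted p of 0.109). None reached an unadjusted edgeR p under 0.05 either, against 8.03% of all genes (1128), nor an adjusted p under 0.05 in DESeq2, against 0.79% of all genes (111). Their median log2 fold change in edgeR lay at −0.06, beside −0.01 for all tested genes, with 6 of the 10 below 0 and 4 above. Of all 14048 tested genes, 7185 lay below 0. In limma 7 of the 10 genes were below 0 and 3 above. After TMM scaling for library composition, the groups did not overlap for 3 of the 10 genes, PRKAA1, PRKAB2 and STK11, all lower in shTPX2, against 20.2% of all genes in this direction and 39.6% in either. In bulk RNA, fewer cells expressing a gene and less RNA per cell cannot be told apart. In TPM, which is not corrected for composition, 5 of the 10 were lower without overlap, against 30.3% of all genes.

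The alpha subunit genes were both lower in TPM in the shTPX2 libraries, and PRKAA1 was called. PRKAA1 (chr5:40759389-40798374, RefSeq GRCh38.p14) was measured at 69.17 and 80.76 TPM in shNC 1 and 2 and at 54.65 and 51.93 TPM in shTPX2 1 and 2, with no overlap between the groups. The group means were 75.0 ± 8.2 and 53.3 ± 1.9 TPM (SD, n = 2 each). Its expected counts, 3691.63 and 4247.25 in shNC against 3081.73 and 2788.89 in shTPX2, gave a log2 fold change of −0.36 (SE 0.17, 95% interval −0.77 to 0.05), or 0.778 of the shNC level. The adjusted p in edgeR was 0.659, and the unadjusted limma p that made the call was 0.0698. With shNC 1 left out the call remained (log2 fold change −0.44), in the leave-out setting that called the most genes over all. The call was lost without shNC 2 (−0.28), without shTPX2 1 (−0.42) and without shTPX2 2 (−0.29). In these fits the lone library of a group was assumed to vary like the other group. PRKAA2 (chr1:56645314-56715335), which encodes the alpha-2 catalytic subunit, was measured at 5.07 and 5.93 TPM in shNC versus 4 and 4.81 TPM in shTPX2. The groups did not overlap in TPM but overlapped after TMM scaling, and the log2 fold change of −0.20 (SE 0.20, 95% interval −0.69 to 0.28) had an edgeR adjusted p of 0.824.

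Among the beta subunit genes, PRKAB2 was called lower and PRKAB1 was not. PRKAB2 (chr1:147155106-147172470) was measured at 8.95 and 12.32 TPM in shNC 1 and 2 and at 6.77 and 7.68 TPM in shTPX2 1 and 2, the highest value being that of shNC 2. The means were 10.6 ± 2.4 TPM in shNC and 7.23 ± 0.64 TPM in shTPX2 (SD, n = 2 each). Its expected counts were 535.85 and 733.16 in shNC and 417.96 and 456.97 in shTPX2. The log2 fold change of −0.46 (SE 0.22, 95% interval −0.99 to 0.07) corresponds to 0.727 of the shNC level, with an edgeR adjusted p of 0.660 and an unadjusted limma p of 0.0919. The call was kept without shNC 1 (−0.65), the leave-out setting that called the most genes over all. It was lost without shNC 2 (−0.24), without shTPX2 1 (−0.37) and without shTPX2 2 (−0.52). TPX2 and PECAM1 were also highest in shNC 2, and the part of this library in the PRKAB2 difference is seen in the estimates with and without it. PRKAB1 (chr12:119667952-119681619), which encodes the beta-1 scaffold, was measured at 22.60 and 25.63 TPM in shNC versus 19.10 and 22.29 TPM in shTPX2. The shTPX2 2 value came close to that of shNC 1, and the log2 fold change of −0.09 (SE 0.19, 95% interval −0.54 to 0.35) had an edgeR adjusted p of 0.924.

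The gamma subunit genes, whose products bind AMP, ADP and ATP, were not called. PRKAG1 (chr12:49002274-49018776, gamma-1) was measured at 60.18 and 62.73 TPM in shNC versus 51.09 and 62.21 TPM in shTPX2. In TPM only shTPX2 1 stood below the other libraries, and after TMM scaling the log2 fold change was 0.00 (SE 0.17, 95% interval −0.41 to 0.41, edgeR adjusted p = 0.997). PRKAG2 (chr7:151556127-151877115, gamma-2) was measured at 16.98 and 19.60 TPM in shNC versus 18.19 and 17.06 TPM in shTPX2. Both shTPX2 values fell within the shNC range, with a log2 fold change of 0.04 (SE 0.19, 95% interval −0.42 to 0.51, edgeR adjusted p = 0.969). The sign of the difference of PRKAG1 and PRKAG2 turned under other scalings or when a library was left out, so no direction is given for them.

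**Figure D2:**
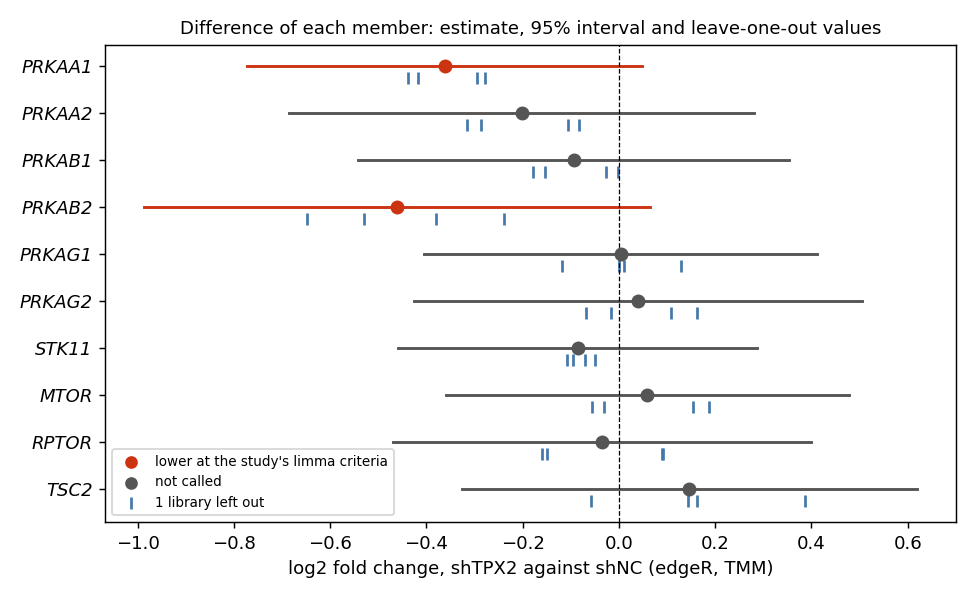
Log2 fold change of each gene in shTPX2 against shNC cells (edgeR, TMM scaling): the point is the estimate, the horizontal line its 95% interval, and the blue ticks the values with 1 library left out at a time. Every interval includes 0; the ticks of PRKAA1 and PRKAB2 (red, called lower) all lie below 0, between −0.44 and −0.28 for PRKAA1 and between −0.65 and −0.24 for PRKAB2.

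The make-up of the subunit pool was compared within libraries, which removes the scaling between them. PRKAA2 made up 6.83% and 6.84% of the summed alpha TPM in shNC and 6.82% and 8.48% in shTPX2, a difference of 0.81 percentage points that was 1.64 without shTPX2 1 and −0.015 without shTPX2 2. PRKAG2 made up 22.01% and 23.81% of the gamma TPM in shNC and 26.26% and 21.52% in shTPX2, a difference of 0.98 points that ran from −1.39 without shTPX2 1 to 3.35 without shTPX2 2 and was 0.082 without shNC 1 and 1.88 without shNC 2. Both pairs of groups overlapped (two-sided exact permutation p = 1 for each). PRKAB2 made up 28.4% and 32.5% of the beta TPM in shNC and 26.2% and 25.6% in shTPX2, 4.52 points lower without overlap. This difference was −2.47 points without shNC 2 and −6.57 points without shNC 1. Its two-sided exact permutation p was 0.333, the smallest that 2 libraries against 2 can give, so this comparison could not pass a threshold of 0.05 at any size of difference.

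The summed alpha mRNA was 74.2 and 86.7 TPM in shNC versus 58.7 and 56.7 TPM in shTPX2. The summed beta mRNA was 31.55 and 37.95 TPM in shNC versus 25.9 and 30.0 TPM in shTPX2, and the summed gamma mRNA 77.2 and 82.3 TPM against 69.3 and 79.3 TPM. The alpha and beta sums were lower in both shTPX2 libraries, whereas the gamma sums overlapped. TPM is not corrected for composition, and 30.3% of all genes were lower without overlap in TPM. The beta sums of shNC 1 (31.55 TPM) and shTPX2 2 (30.0 TPM) were close. PRKAB1, the larger part of the beta sum, overlapped between groups after TMM scaling. Expressed within each library, a ratio chosen after the values were seen, alpha over gamma was 0.962 and 1.05 in shNC and 0.847 and 0.716 in shTPX2. Beta over gamma was 0.409 and 0.461 in shNC and 0.373 and 0.378 in shTPX2. Neither ratio overlapped between groups, each at the smallest possible two-sided exact permutation p of 0.333. A lack of overlap was not particular to these ratios. Alpha over beta (2.35 and 2.28 in shNC, 2.27 and 1.89 in shTPX2), MTOR over RPTOR and MLST8 over MTOR did not overlap either, whereas TSC2 over TSC1 did.

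**Figure D3:**
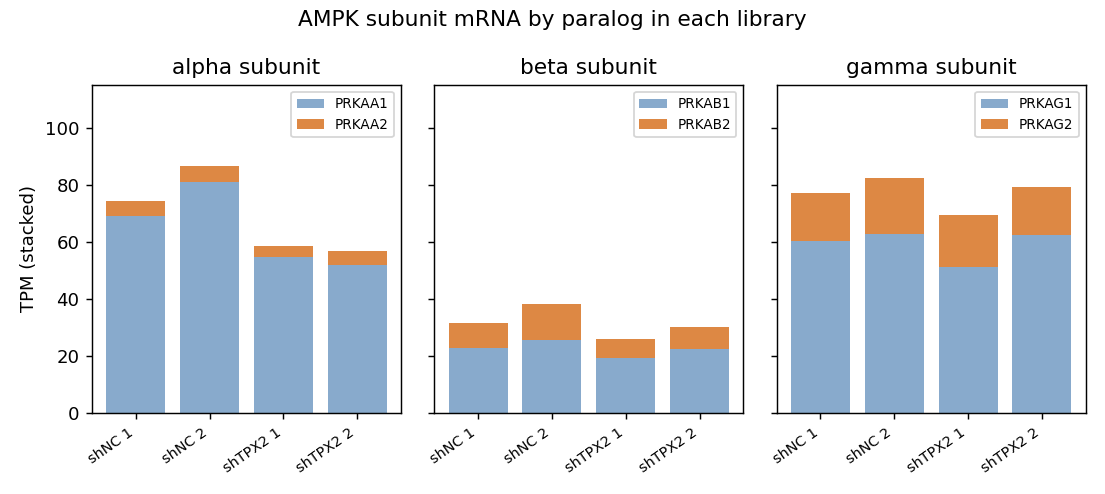
Stacked TPM of the 2 paralogs of each AMPK subunit (alpha, beta, gamma) in each library. The alpha bars reach 74.2 and 86.7 TPM in shNC versus 58.7 and 56.7 TPM in shTPX2, nearly all of it PRKAA1, while the gamma bars of the groups overlap. TPM is not corrected for composition, and 30.3% of all genes were lower in shTPX2 without overlap in TPM.

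LKB1, the kinase upstream of AMPK, was not called. STK11 (chr19:1205778-1228431) was measured at 44.06 and 50.59 TPM in shNC versus 41.47 and 41.38 TPM in shTPX2. The shTPX2 values were close to each other and under both shNC values, but the log2 fold change was −0.09 (SE 0.15, 95% interval −0.46 to 0.29, edgeR adjusted p = 0.914). This interval leaves room for a decrease as large as that estimated for PRKAA1.

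The mTORC1 components and TSC2 were also not called. MTOR (chr1:11106535-11262551), the catalytic subunit of both mTOR complexes, was measured at 19.75 and 17.59 TPM in shNC versus 18.59 and 17.20 TPM in shTPX2, with a log2 fold change of 0.06 (SE 0.17, 95% interval −0.36 to 0.48, edgeR adjusted p = 0.953). RPTOR (chr17:80544838-80966368), whose product raptor presents substrates to mTORC1, was measured at 28.29 and 24.91 TPM in shNC versus 25.55 and 22.08 TPM in shTPX2, with a log2 fold change of −0.04 (SE 0.18, 95% interval −0.47 to 0.40, edgeR adjusted p = 0.972). For both genes library 1 was the higher of each group and the groups overlapped. TSC2 (chr16:2047985-2089491), the GTPase-activating subunit that turns off RHEB, was measured at 43.68 and 33.13 TPM in shNC versus 38.78 and 39.56 TPM in shTPX2. The shTPX2 values lay between the 2 shNC values, and the log2 fold change was 0.15 (SE 0.20, 95% interval −0.33 to 0.62, edgeR adjusted p = 0.877). Without shNC 1, the leave-out setting that called the most genes over all, TSC2 was called higher (0.39). Without shNC 2 its estimate was −0.06, so the value rested on which shNC library was used.

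Reads were not a limit for these genes: the smallest count among them was 415.88 (PRKAA2 in shTPX2 1), and counting error alone gave a coefficient of variation of at most 4.90%, against a spread of up to 22.4% between the shNC libraries (PRKAB2). No sequence of 31 bases was shared between the paralogs of an AMPK subunit, and at most 4.66% of a gene's 31-base sequences (PRKAB1) occurred in any other gene. Exons of genes on the opposite strand covered 12.7% of the exonic bases of PRKAG1 and 6.01% of those of TSC2 in GENCODE v29, and 0% of those of PRKAA1, PRKAA2 and PRKAB2. The strand setting of the counting is not given in the sources used here, so reads from these overlaps could not be told apart.

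The other genes of the pathway were described in lists by role, 97 genes of which 96 were tested. The lists were chosen with earlier results of these data known, so the shares given here and below describe them and test nothing. The limma criteria called 19.8% of them, 7 higher and 12 lower, beside 14.2% of all genes, and their median log2 fold change was 0.01, against −0.01 over all genes. No gene of these lists had an edgeR adjusted p under 0.05, while 13 of the 96 had an unadjusted p under 0.05 in edgeR, where 8.03% of all genes did. DESeq2 called 1 of these 96 at an adjusted p under 0.05, RICTOR (adjusted p = 0.0211), where 0.79% of all genes were called. Of the 19 calls, 5 held whichever library was left out: RICTOR, PRR5L, TELO2, EIF4EBP2 and TXNIP. How many of the 1998 calls over all genes held in this way was not counted.

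Partners of MTOR in its complexes moved in both directions: of 9 tested, 2 were called lower and 2 higher (44.4%, against 14.2% of all genes), with a median log2 fold change of 0.27. In limma this median was 0.24, and it ran from 0.086 without shNC 2 to 0.44 without shNC 1, being 0.17 without shTPX2 2 and 0.40 without shTPX2 1. RICTOR, the defining subunit of mTORC2, was measured at 19.99 and 22.47 TPM in shNC versus 11.40 and 10.61 TPM in shTPX2. Every shTPX2 value was well below every shNC value, with a log2 fold change of −0.83 (SE 0.16, edgeR adjusted p = 0.448, limma unadjusted p = 0.00211). PRR5L, an mTORC2-associated protein, was lower as well, at 10.79 and 16.51 TPM in shNC versus 7.04 and 4.67 TPM in shTPX2 (log2 fold change −1.11, SE 0.31). TELO2, which helps to assemble mTOR and related kinases, was higher, at 15.09 and 12.90 TPM in shNC versus 20.06 and 23.00 TPM in shTPX2 (0.68, SE 0.19). MLST8, shared by both complexes, was called higher, at 93.07 and 60.93 TPM in shNC versus 97.88 and 99.43 TPM in shTPX2 (0.47, SE 0.24), but shNC 1 was close to the shTPX2 libraries. The call was lost in limma when shNC 2 (log2 fold change 0.17), shTPX2 1 (0.50) or shTPX2 2 (0.53) was left out. AKT1S1 (PRAS40), an mTORC1 inhibitor, was not called, at 270.27 and 166.03 TPM in shNC versus 247.79 and 259.31 TPM in shTPX2. Within libraries, RICTOR over RPTOR, a ratio of TPM chosen after the values were seen, was 0.707 and 0.902 in shNC and 0.446 and 0.481 in shTPX2, without overlap (two-sided exact permutation p = 0.333, the smallest possible).

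Downstream, AMPK substrates were mostly below 0: of 12 genes tested, 4 were called lower and 1 higher (41.7%, against 14.2% of all genes), and 11 lay below 0, with a median log2 fold change of −0.44 against −0.01 over all genes. The count of 11 below 0 was the same in limma with TMM, RLE, upper-quartile or no factors and on log2(TPM + 1). Of all 14048 tested genes, 7084 lay below 0 in limma with TMM factors. This rose to 8366 with no factors and to 9197 on log2(TPM + 1), so the unchanged count says little in those settings. In limma the median was −0.43, and without shNC 1 it was −0.17 with 9 below 0, while it ran from −0.50 to −0.35 with another library left out. The number of limma calls in this list changed with the library left out, as did that over all genes, so it is not read here. TXNIP, an inhibitor of glucose uptake, was measured at 257.99 and 566.94 TPM in shNC versus 171.20 and 163.06 TPM in shTPX2 (log2 fold change −1.18, SE 0.35, edgeR adjusted p = 0.579), and like TPX2 it was highest in shNC 2. The limma log2 fold change of TXNIP was −0.53 without shNC 2 and −1.62 without shNC 1, and the call held in both. TBC1D4, a Rab GTPase-activating protein that controls glucose transporter traffic, was measured at 11.22 and 10.66 TPM in shNC versus 7.11 and 7.04 TPM in shTPX2 (−0.50, SE 0.18). ACACB, the mitochondrial acetyl-CoA carboxylase that limits fatty acid oxidation, was measured at 3.89 and 4.39 TPM in shNC versus 2.66 and 2.60 TPM in shTPX2 (−0.54, SE 0.21). TBC1D1, a relative of TBC1D4 named here after its values were seen, was also called lower, at 47.12 and 71.3 TPM in shNC versus 37.13 and 36.9 TPM in shTPX2 (−0.57, SE 0.23). PFKFB3, which makes an activator of glycolysis, was called higher, at 18.06 and 14.26 TPM in shNC versus 21.98 and 21.30 TPM in shTPX2 (0.52, SE 0.18). MFF, a mitochondrial fission factor, was not called, at 75.81 and 87.02 TPM in shNC versus 71.10 and 67.85 TPM in shTPX2. Several of these calls were lost in limma with 1 library left out: TBC1D4 was lost without shNC 1 (−0.41), shTPX2 1 (−0.54) or shTPX2 2 (−0.44), and TBC1D1 without shNC 2 (−0.25), shTPX2 1 (−0.55) or shTPX2 2 (−0.52). ACACB was lost without shTPX2 1 (−0.56) or shTPX2 2 (−0.51), and PFKFB3 without shNC 2 (0.37) or shTPX2 1 (0.52).

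Effectors of mTORC1 included 2 genes called higher and 0 called lower of 12 tested (16.7%, near the 14.2% of all genes), with a median log2 fold change of 0.05. EIF4EBP2, a repressor of cap-dependent translation that mTORC1 inactivates, was measured at 39.15 and 46.09 TPM in shNC versus 57.90 and 62.27 TPM in shTPX2, higher in both shTPX2 libraries (0.62, SE 0.17, edgeR adjusted p = 0.579). RPS6KB2, the S6 kinase paralog, was called higher, at 70.89 and 75.49 TPM in shNC versus 78.92 and 90.94 TPM in shTPX2 (0.33, SE 0.16), but the call was lost with any library left out, at limma log2 fold changes of 0.26 to 0.41. RPS6, the ribosomal S6 protein, was not called, at 2565.60 and 2386.02 TPM in shNC versus 2547.33 and 2217.50 TPM in shTPX2, nor was EIF4EBP1, the paralog of EIF4EBP2, at 274.25 and 168.31 TPM in shNC versus 317.21 and 222.97 TPM in shTPX2. The median of the effectors fell to −0.01 when libraries were scaled by size only and to −0.06 on log2(TPM + 1), and in limma it ran from −0.033 without shTPX2 1 to 0.17 without shTPX2 2, so no direction is given for this list.

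Of 7 genes upstream of AMPK, 1 was called lower (14.3%, close to the 14.2% of all genes), with a median of −0.11 that in limma ran from −0.30 without shNC 1 to −0.065 without shNC 2. This was MAP3K7 (TAK1), a kinase reported to activate AMPK, at 34.75 and 34.06 TPM in shNC versus 26.64 and 20.76 TPM in shTPX2 (−0.47, SE 0.20), which was not called without shTPX2 2 (limma −0.26). CAB39, the scaffold of LKB1, was not called, at 66.79 and 107.47 TPM in shNC versus 77.87 and 55.70 TPM in shTPX2. None of the 12 AMPK-related kinases that LKB1 activates was called, against 14.2% of all genes, with a median of −0.14, although 2 were called lower when libraries were scaled by size only, by upper quartile or on log2(TPM + 1). In limma their median ran from −0.19 without shTPX2 1 to −0.055 without shNC 1. Some of them were called without shNC 1 or without shNC 2, where the number of calls over all genes changed too. The most expressed of them were MARK3, at 85.82 and 96.42 TPM in shNC versus 86.58 and 86.67 TPM in shTPX2, and MARK2, at 88.21 and 76.14 TPM in shNC versus 84.87 and 88.69 TPM in shTPX2. The TSC and RHEB list had 0 calls among 4 genes and a median of 0.11, which turned to −0.011 on log2(TPM + 1) and in limma ran from −0.029 without shNC 1 to 0.28 without shNC 2. RHEB, the GTPase that activates mTORC1, was measured at 144.19 and 195.63 TPM in shNC versus 167.51 and 178.00 TPM in shTPX2. TBC1D7, a subunit of the TSC complex, was measured at 21.20 and 27.86 TPM in shNC versus 23.88 and 30.84 TPM in shTPX2.

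The amino acid arm, which recruits mTORC1 to the lysosome, had 1 gene called higher and 2 called lower of 26 (11.5%, against 14.2% of all genes), with a median of 0.07. SEC13, a GATOR2 subunit, was called higher, at 131.90 and 151.78 TPM in shNC versus 181.24 and 178.42 TPM in shTPX2 (0.46, SE 0.16), and was not called without shTPX2 1 (limma 0.44). RRAGD, a Rag GTPase, was called lower, at 2.66 and 5.55 TPM in shNC versus 1.73 and 1.75 TPM in shTPX2 (−1.11, SE 0.40). CASTOR1, an arginine sensor, was called lower, at 15.66 and 29.93 TPM in shNC versus 11.42 and 11.50 TPM in shTPX2 (−0.86, SE 0.33). For RRAGD and CASTOR1 alike shNC 2 held the highest value, and without it the limma log2 fold changes were −0.51 and −0.35, both not called. Their calls were also lost without shTPX2 1 (−1.02 and −0.80) and without shTPX2 2 (−0.998 and −0.77). LAMTOR1, the membrane anchor of Ragulator, was not called, at 175.29 and 144.93 TPM in shNC versus 155.64 and 185.32 TPM in shTPX2. The median of this list turned to −0.04 on log2(TPM + 1), and in limma it ran from −0.002 without shTPX2 2 to 0.16 without shTPX2 1.

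Among 11 PI3K and AKT genes, 1 was called higher and 2 lower (27.3%, against 14.2% of all genes), with a median of −0.11 that in limma ran from −0.17 without shNC 2 to 0.11 without shTPX2 2. AKT1, the kinase that inactivates TSC2, was called higher, at 67.13 and 78.91 TPM in shNC versus 91.22 and 89.66 TPM in shTPX2 (0.43, SE 0.17), but not without shNC 1 (limma 0.35) or shTPX2 1 (0.41). The catalytic subunit gene PIK3CA was called lower, at 15.99 and 14.63 TPM in shNC versus 11.18 and 11.33 TPM in shTPX2 (−0.37, SE 0.16), and its call was lost with any library left out, at −0.39 to −0.34. The regulatory subunit gene PIK3R1 was called lower, at 2.98 and 2.69 TPM in shNC versus 1.59 and 1.97 TPM in shTPX2 (−0.64, SE 0.28), but not without shNC 1 (−0.51), shTPX2 1 (−0.50) or shTPX2 2 (−0.77). PIK3R2, another regulatory subunit gene, was not called, at 120.67 and 87.11 TPM in shNC versus 107.73 and 107.83 TPM in shTPX2. Of 5 stress-induced mTORC1 inhibitors, 4 were tested and 1 was called lower (25%, against 14.2% of all genes), with a median of −0.41 that in limma was −0.079 without shNC 1, −0.14 without shTPX2 2, −0.62 without shTPX2 1 and −0.71 without shNC 2. The called gene was DDIT4L, at 1.16 and 2.09 TPM in shNC versus 0.93 and 0.36 TPM in shTPX2 (−1.19, SE 0.60), a call lost without shNC 2 (limma −0.88) or shTPX2 2 (−0.59). Its relative DDIT4 (REDD1) was not called and varied within both groups, at 186.97 and 64.98 TPM in shNC versus 139.53 and 47.51 TPM in shTPX2. SESN2, a leucine sensor, was not called either, at 18.68 and 13.55 TPM in shNC versus 17.79 and 15.17 TPM in shTPX2.

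**Figure D4:**
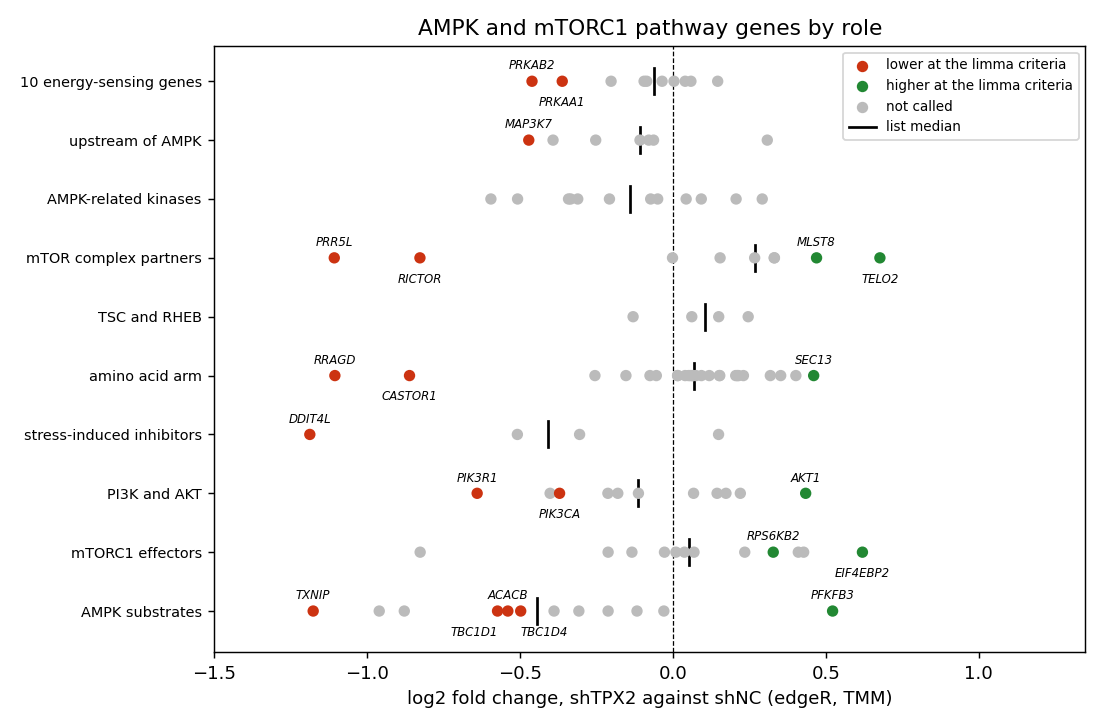
Log2 fold change (edgeR, TMM scaling) of each tested gene of the 10 energy-sensing genes and of 9 lists of pathway genes by role, with genes called lower in red, called higher in green and not called in grey, and the list median as a black bar. The medians of the lists lie between −0.44 (AMPK substrates) and 0.27 (mTOR complex partners), and the 10 genes themselves lie between −0.46 and 0.15.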

How the data were processed

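Expression was measured by poly(A) RNA-seq (DNBSEQ, paired-end) in 2 shNC and 2 shTPX2 libraries of PC9 cells, grouped by their labels. Per the study's methods, SOAPnuke was used for read cleaning, HISAT2/Bowtie2 for alignment and RSEM or StringTie for quantification. The submitters' processing notes instead list HISAT2, featureCounts, DESeq2 and GRCh38. The annotation and strand setting are not given in the sources used here. The unit deposited by the authors for testing was the expected count, with no normalization; 42.15% to 44.58% of these counts were not whole. The deposited TPM values, scaled to the same total in each library, and the deposited FPKM values, scaled by length and depth, served for levels and for the paralog shares. The deposited group averages were not the means of the 2 libraries: within 0.01 hundredths, all of the shNC averages became whole hundredths when multiplied by 3 and all of the shTPX2 averages when multiplied by 4. Other libraries that may lie behind them are not analysed here, and these averages were not used.

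Expected counts were rounded to 0 decimals. Genes were kept by filterByExpr (14048 of 18134). Log2 fold changes, SE and p came from the quasi-likelihood test of edgeR 4.0.16 (TMM, common dispersion 0.0485) with Benjamini-Hochberg adjustment over all kept genes, in R 4.3.3. Calls were made with limma 3.58.1 and voom at the study's limits, read here as an unadjusted p not above 0.1 with an absolute log2 fold change of 0.3 or more. DESeq2 1.42.0 was an alternative. Other alternatives were RLE, upper-quartile or no factors, no filter, at least 10 counts in every library, log2(TPM + 1), a replicate block, FPKM for the shares, and each library left out. Ratios and shares were compared by exact permutation tests. Scripts were tested on simulated data. The 10 genes and the pathway lists were chosen with earlier results of these data known. Named were the 10 genes, TPX2, the markers and, per list, up to 4 called genes by smallest limma p and the 2 with the highest mean TPM. Counting error covers reads only.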

Additional observations from a re-analysis of the deposited data

How the results depend on the processing

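PRKAA1, PRKAA2, PRKAB1, PRKAB2 and STK11 stayed below 0 in the 12 alternatives to the edgeR estimate run for each gene (in limma without shTPX2 1, PRKAB1 was at 8.033e-05), and none of the 10 genes reached an adjusted p under 0.05 in any of them. In 15 of 120 values the sign turned, in the other 5 genes. PRKAG1 became −0.065 with library size only, −0.022 with upper-quartile factors, −0.0064 with at least 10 counts in every library, −0.0015 with the replicate block and −0.0019 in limma, and ranged from −0.12 to 0.13 with 1 library left out. PRKAG2 became −0.034 with library size only and ranged from −0.068 to 0.16 with 1 library left out. MTOR became −0.0098 with library size only and ranged from −0.057 to 0.19. RPTOR ranged from −0.16 to 0.091 and TSC2 from −0.059 to 0.39 with 1 library left out, with no reversal otherwise. TPX2 kept its direction in all 12. The cause was not tested.

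With 1 library left out, the calls among the 10 genes ranged from 0 to 3, those among all genes from 1018 (without shTPX2 2) to 3515 (without shNC 1) against 1998, those among the pathway genes from 11 to 29 against 19, and the genes at an edgeR adjusted p under 0.05 from 0 to 23. DESeq2 called 111 genes at an adjusted p under 0.05 (33 higher, 78 lower) where edgeR called 0. The split of limma calls over all genes, 876 higher and 1122 lower, became 578 and 1445 with library size only and 440 and 1684 on log2(TPM + 1), settings that moved the limma median of all genes to −0.073 and −0.099; for the pathway genes, 7 and 12 became 6 and 17, and 5 and 17. With the replicate number as a block, limma called 2447 genes, 26 pathway genes and the same number of the 10 genes, 2. Deviations of same-numbered libraries correlated at 0.18 over 2 pairs, and the numbers mark no shared batch in the labels, so the pairing is not established. With FPKM in place of TPM the paralog share differences were 0.80 (PRKAA2), −4.51 (PRKAB2) and 0.98 (PRKAG2) points.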
